A study of Mus musculus with 16 samples.

Results

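The transcripts described here are 8 mouse noncoding genes that carry small nucleolar RNAs (snoRNAs) in their introns: Gas5, Snhg1, Snhg3, Snhg5, Snhg6, Snhg8, Snhg12 and Zfas1. They were taken as a fixed set of symbols and matched to the gene identifiers of the deposited files. Of the 8 members, 7 had a row among the 46517 identifiers and all 7 passed the filter on low counts, beside 14933 genes tested in all. Snhg1 matched no row and its level was not analysed here.

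SnoRNAs guide chemical modification and processing of ribosomal RNA in the nucleolus. In mammals they are cut out of introns, so the spliced host RNA is a by-product that for these genes encodes no conserved protein. Many hosts begin with a terminal oligopyrimidine (TOP) tract, a C followed by pyrimidines, which also opens the mRNAs of ribosomal proteins and couples their translation to growth signals through mTOR. Short reading frames in the host RNAs are translated, and the ribosome's early stop exposes the RNA to nonsense-mediated decay, so that steady-state host RNA reflects both synthesis and translation-linked decay.

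RNA was measured in live CD4+CD8+ double-positive thymocytes, sorted by flow cytometry from the thymus of 16 mice, with 1 library per mouse. All mice were NOD-AI4, a strain with the transgenic T cell receptor of an autoreactive CD8 T cell clone, and were aged 6 to 7 weeks. The groups were NOD-AI4 controls (n = 6; 3 males and 3 females), NOD-AI4-Nfkbid-/- mice, labelled knockout (n = 5; 4 males and 1 female), and NOD-AI4-60A mice, labelled as carrying an Nfkbid transgene (n = 5; 3 males and 2 females). Nfkbid encodes a nuclear IκB protein that modulates NF-κB target genes. The labels do not say which promoter drives the transgene or how the knockout allele was made.

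Library totals were 17955743 to 35637813 estimated counts. Nfkbid lay between 114.7 and 309.6 counts per 1000000 (CPM) in the transgenic libraries and between 28.93 and 36.86 in controls. In the libraries labelled knockout it lay between 28.21 and 37.84 CPM, so its total level did not separate them from controls, and they are called knockout-labelled below. All 10 double-positive thymocyte markers checked reached a mean of at least 1 CPM in every group. Their sum had a median of 9289 CPM in controls, 7946 in the knockout-labelled group and 7335 in transgenic libraries. At an edgeR adjusted p under 0.05 against control, 2 were lower and 1 higher in knockout-labelled mice. In transgenic mice 6 were lower and 1 higher. Of all genes, 26.4% and 38.6% passed that threshold. Summed B cell markers had a median of 9.847 CPM in controls (8.121 to 27.52) and 65.22 in the knockout-labelled group (8.21 to 77.07). In transgenic libraries the median was 128.3 CPM (at most 177.2), and every sum lay above those of the other groups. At that threshold 3 of the 10 B cell markers were higher and 2 lower in knockout-labelled mice, with a median log2 fold change of 0.04. The higher median sum there was therefore not shared by all markers. In transgenic mice 9 were higher and none lower, with a median log2 fold change of 3.1. That count was 4 in males alone and 6 without control replicate 2 and transgenic replicates 3 and 5. Macrophage and dendritic cell markers summed to 5.179 to 9.953 CPM in controls and 15.03 to 21.22 in transgenic libraries. The knockout-labelled sums were 4.034 to 11.75 CPM. Of these 8 markers 1 was higher in knockout-labelled and 6 in transgenic mice (1 in males alone), and none was lower. Erythroid markers summed to at most 84.67 CPM, in a control. Thymic epithelium markers summed to at most 1.095 CPM in any library. Summed proliferation genes were 3416 to 4969 CPM in controls, 4845 to 7346 in the knockout-labelled group and 5292 to 7077 in transgenic libraries. Control mice carry identifiers with the prefix AT and all other mice the prefix LS, so a group's difference from control and a difference between these identifier series cannot be told apart. The part of these measures in the results below was not tested. In bulk samples of this kind, fewer cells of a type and less RNA per cell cannot be told apart.

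The 5′ ends are shown because a TOP tract is defined by the first bases of the transcript. They are the first 50 bases from each RefSeq start site (GRCm38.p6), with the unbroken pyrimidine run from the first base in capitals. RefSeq gave starts for 7 of the 8 members, and Gas5 had 2, of which the upstream one opens no GENCODE transcript.
Gas5, upstream start, chr1:161034601-161034650, plus strand: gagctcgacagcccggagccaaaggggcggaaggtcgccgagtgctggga
Gas5, downstream start, chr1:161035166-161035215, plus strand: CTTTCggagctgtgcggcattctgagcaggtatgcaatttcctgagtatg
Snhg8, chr3:123508287-123508336, minus strand: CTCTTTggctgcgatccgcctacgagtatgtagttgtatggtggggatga
Snhg12, chr4:132308678-132308727, plus strand: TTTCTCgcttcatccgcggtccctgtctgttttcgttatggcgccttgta
Snhg1, chr19:8723487-8723536, plus strand: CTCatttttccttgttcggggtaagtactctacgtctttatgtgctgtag
Snhg3, chr4:132353637-132353686, minus strand: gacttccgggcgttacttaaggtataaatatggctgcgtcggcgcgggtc
Snhg5, chr9:88522848-88522897, minus strand: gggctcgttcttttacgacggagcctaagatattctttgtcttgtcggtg
Zfas1, chr2:167062934-167062983, plus strand: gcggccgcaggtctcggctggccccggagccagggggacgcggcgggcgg
A C followed by at least 4 pyrimidines opened 2 of these 8 windows, the downstream Gas5 start and Snhg8. The same letters opened 2.51% of all 32851 RefSeq windows and 19.7% of the 71 windows of ribosomal protein genes. Snhg12 opened with a pyrimidine run whose first base was T, and Snhg3, Snhg5 and Zfas1 opened with G. A start placed a base or so from the one the cell uses changes this reading, so a window without the letters says nothing of the transcript's own 5′ end. The E-box CACGTG, the letters bound by Myc and Max (identical on both strands), was in none of the 8 windows when all 300 bases, 250 before and 50 after the start, were searched, against 7.15% of all windows and 11.3% of those of ribosomal protein genes.

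The snoRNAs inside the hosts belong to 2 classes, and 1 is shown for each host with a called change in its level. Box H/ACA snoRNAs guide pseudouridylation and end 3 bases after an ACA box, while box C/D snoRNAs guide ribose methylation and carry a C box (TGATGA) near the 5′ end and a D box (CTGA) near the 3′ end. The boxes are in capitals, and positions are in GRCm38.
Snora24, H/ACA, in Snhg8, chr3:123507937-123508066, minus strand: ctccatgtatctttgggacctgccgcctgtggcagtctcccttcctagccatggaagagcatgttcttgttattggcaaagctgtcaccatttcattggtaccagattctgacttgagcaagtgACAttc
Snora73b, H/ACA, in Snhg3, chr4:132352322-132352526, minus strand: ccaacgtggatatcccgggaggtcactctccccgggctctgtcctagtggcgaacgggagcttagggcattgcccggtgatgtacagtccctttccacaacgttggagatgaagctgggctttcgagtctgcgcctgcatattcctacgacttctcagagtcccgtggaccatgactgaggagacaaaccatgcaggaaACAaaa
Snord50a, C/D, in Snhg5, chr9:88521529-88521600, minus strand: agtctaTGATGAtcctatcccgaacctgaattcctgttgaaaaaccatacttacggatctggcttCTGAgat
The annotation places 32 small RNA entries of the snoRNA class inside the 8 hosts. In these libraries 21 of the 32 had a median estimated count of 0 over the 16 mice, and 4 passed the filter on low counts. The highest median was 39.24 estimated counts, for an entry inside Gas5. Snora24 had a median of 10.12 and Snord50a a median of 0. SnoRNA levels were not compared between groups, since most entries had no counts in most mice. Why they had none was not tested.

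Levels of different genes were compared per length, in the deposited transcripts per 1000000 (TPM), which allow for transcript length. Gas5, which was first described as a transcript that accumulates when growth stops and can also bind the glucocorticoid receptor, was the most abundant member in all 16 libraries. Its mean was 371.2 ± 9.597 TPM in controls (SD, n = 6), 345.3 ± 19.68 in knockout-labelled (n = 5) and 362.2 ± 24.71 in transgenic libraries (n = 5). It made up 49.52% to 54.09% of the summed TPM of the 7 members in a library. The sum itself was 682.3 to 743.6 TPM in controls, 653.0 to 696.6 in the knockout-labelled group and 649.1 to 736.3 in transgenic libraries, and these ranges overlap.

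Below Gas5, the order of the next 2 members differed between controls and the other groups. Snhg8 held rank 2 in 6 of 6 controls, at 91.33 to 112.0 TPM, with Zfas1 in rank 3 at 81.52 to 102.9. In all 5 knockout-labelled and all 5 transgenic libraries Zfas1 held rank 2 and Snhg8 rank 3. Zfas1 was 85.81 to 96.33 TPM in the knockout-labelled group and 86.89 to 99.44 in transgenic libraries, where Snhg8 was 68.55 to 91.76 and 70.78 to 84.53. Across libraries the ranges of the 2 genes overlapped in controls and in knockout-labelled libraries and did not in transgenic ones, so the order is stated within each library.

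**Figure D1:**
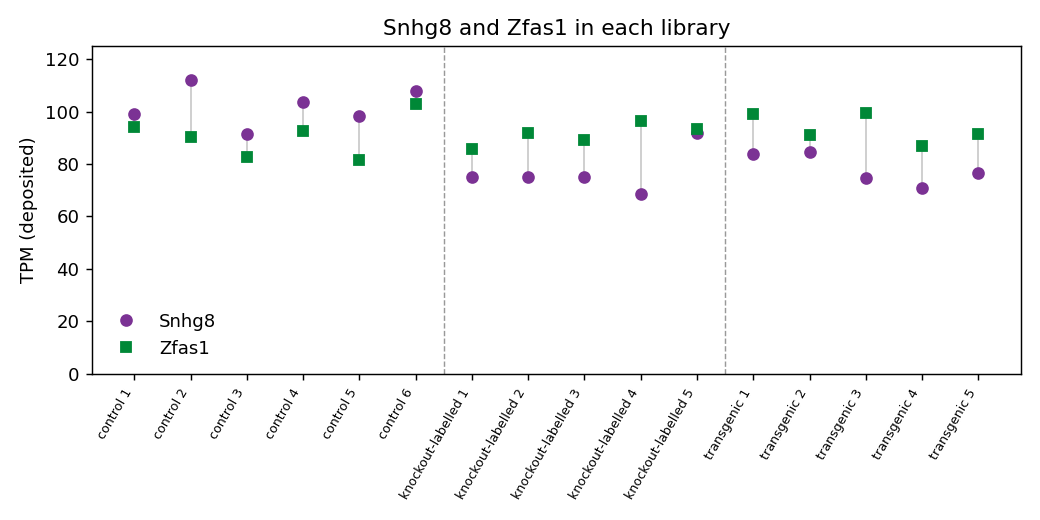
Deposited TPM (linear axis from 0) of Snhg8 (circles) and Zfas1 (squares) in each of the 16 libraries, with a grey line joining the values of 1 library and dashed lines between groups. Snhg8 lies above Zfas1 in 6 of 6 controls and below it in all 5 knockout-labelled and all 5 transgenic libraries.

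The other 4 members were lower. Snhg5 held rank 4 in every control and knockout-labelled library, with means of 60.78 ± 5.49 and 55.35 ± 6.406 TPM, and rank 4 or 5 in transgenic libraries, at 48.57 ± 6.412. Snhg12, Snhg3 and Snhg6 filled the last places, except in transgenic replicate 3, where Snhg3 (48.14 TPM) lay above Snhg5 (48.01 TPM). Snhg12 averaged 37.68 ± 3.326 TPM in controls, 36.05 ± 4.171 in the knockout-labelled group and 34.39 ± 3.871 in transgenic libraries. Snhg3 averaged 33.21 ± 6.564, 36.27 ± 3.636 and 42.47 ± 6.8 TPM in the same order. Snhg6 averaged 26.7 ± 1.858, 27.36 ± 1.38 and 27.31 ± 3.413 TPM. The ranges of Snhg12 and Snhg3 overlapped in every group, and those of Snhg3 and Snhg5 overlapped in transgenic libraries only, from 38.22 to 49.67 TPM.

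Each member's level was then compared between groups in CPM, with edgeR's quasi-likelihood test on counts and adjustment over all 14933 genes. A gene is said to be called, or to have risen or fallen, at an adjusted p under 0.05. Snhg8 fell in both groups and was the only member called in knockout-labelled mice, where 1 of 7 was called, against 26.4% of all genes (16.4% higher and 10.0% lower). In transgenic mice 3 of 7 members were called (Snhg3 higher, Snhg5 and Snhg8 lower), against 38.6% of all genes (23.0% higher and 15.6% lower). Neither share is read as a result about the list. The median log2 fold change of the members was 0.02 in the knockout-labelled group and -0.06 in transgenic mice, beside 0.02 and 0.03 over all genes. The 2 comparisons share the 6 control libraries.

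**Figure D2:**
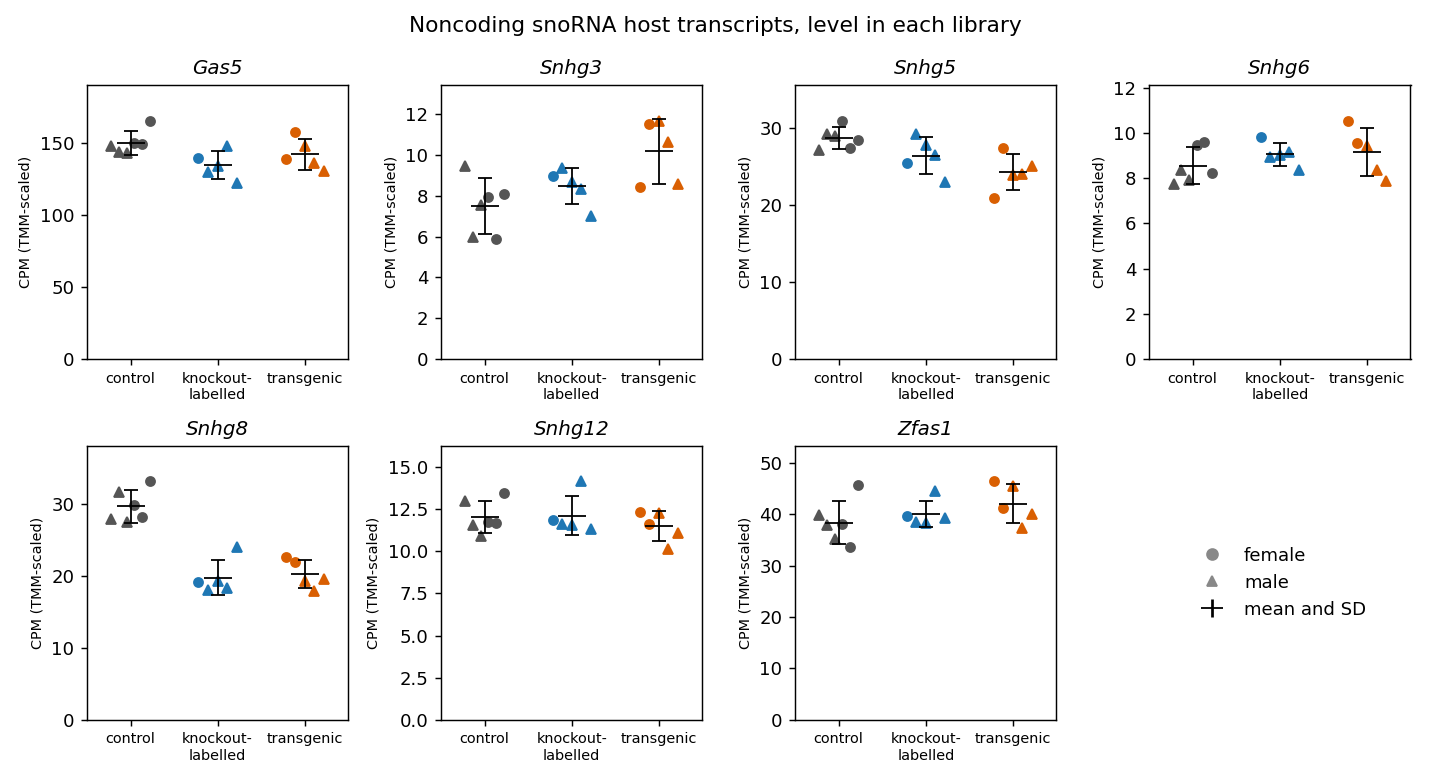
Level of each of the 7 measured members in CPM on TMM-scaled library sizes (linear axes from 0), 1 point per mouse, circles for females and triangles for males, with the mean and SD of each group in black. Snhg8 is the member whose control values, 27.48 to 33.16 CPM, lie above every other library. The remaining panels overlap between groups.

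Snhg8, on chromosome 3 (123507552 to 123508404, minus strand, ENSMUSG00000104960), hosts Snora24, the H/ACA RNA shown above, and opens with the pyrimidine run CTCTTT. Its level in controls was 27.48 CPM in the lowest, 29.03 in the median and 33.16 in the highest mouse. The 5 knockout-labelled mice had 19.22, 18.01, 19.25, 18.29 and 24.03 CPM, replicates 1 to 5. The 5 transgenic mice had 22.59, 21.95, 19.37, 17.87 and 19.62 CPM. No mouse of either group reached the lowest control. Genes whose values lay lower in this way, without overlap, made up 5.34% of all genes in knockout-labelled and 7.88% in transgenic mice, and those that lay higher made up 8.77% and 13.7%. Between transgenic and knockout-labelled mice the shares were 2.33% higher and 0.763% lower, and no member was among them. The log2 fold change of Snhg8 was -0.56 (SE 0.08, edgeR adjusted p = 0.000441) in the knockout-labelled group and -0.54 (SE 0.08, edgeR adjusted p = 0.000125) in transgenic mice, or 0.678 and 0.686 of the control level. Between the transgenic and knockout-labelled groups the difference was 0.02, with a 95% interval from -0.17 to 0.2 (edgeR adjusted p = 0.986). Without control replicate 1 and knockout-labelled replicates 1, 2 and 3, which stood out for MHC class II transcripts, the knockout-labelled difference was -0.431 and missed the threshold (edgeR adjusted p = 0.0501), with 2 libraries left in that group. In the GENCODE annotation used here, the isoforms of Snhg8 together cover the whole gene, introns included, and so do those of Snhg12 and Zfas1. The annotation behind the deposited counts is not given, so whether spliced and unspliced RNA were counted together is not known.

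Snhg3, the host of the U17 snoRNAs (Snora73a and Snora73b) that act in the processing of the small-subunit ribosomal RNA, rose in transgenic mice. In controls it was 5.877 CPM in the lowest, 7.734 in the median and 9.455 in the highest mouse. The transgenic mice had 8.439, 11.52, 11.68, 10.64 and 8.573 CPM and the knockout-labelled mice 8.952, 9.366, 8.654, 8.323 and 7.029. Of the transgenic mice 3 lay above all controls and 2 lay within the control range, as did all 5 knockout-labelled mice. The log2 fold change was 0.44 in transgenic (SE 0.13, edgeR adjusted p = 0.0147) and 0.17 in knockout-labelled mice (SE 0.14, edgeR adjusted p = 0.373), and the difference between these groups was 0.27, with a 95% interval from -0.03 to 0.57 (edgeR adjusted p = 0.591).

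The Snhg3 value is uncertain for a further reason. The gene (chromosome 4, 132348014 to 132353686, minus strand, ENSMUSG00000085241) shares 5592 bases of its span and its strand with Rcc1, the chromatin-bound exchange factor of the GTPase Ran, and the authors' counting could have split reads between them. Rcc1 rose in both groups, with log2 fold changes of 0.58 (SE 0.09, edgeR adjusted p = 0.000581) in the knockout-labelled group and 0.51 (SE 0.09, edgeR adjusted p = 0.000396) in transgenic mice. Its mean was 41.33 CPM in controls, 62.62 in the knockout-labelled group and 59.07 in transgenic mice. How much of the Snhg3 estimate comes from shared reads was not tested. The Snhg3 call was lost without control replicate 2 (log2 fold change 0.341, edgeR adjusted p = 0.0604), without transgenic replicate 2 (edgeR adjusted p = 0.0711), in males alone (edgeR adjusted p = 0.121) and without control replicate 2 and transgenic replicates 3 and 5 together, which stood out for interferon-response transcripts (edgeR adjusted p = 0.082).

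Snhg5 (chromosome 9, 88521050 to 88522929, minus strand, ENSMUSG00000097195), which hosts the C/D pair Snord50a and Snord50b, fell in transgenic mice. Its control level was 27.14 CPM in the lowest, 28.76 in the median and 31.0 in the highest mouse. The transgenic mice had 20.93, 27.42, 23.97, 24.09 and 25.1 CPM, and 4 of the 5 lay below every control. The knockout-labelled mice had 25.5, 29.29, 27.9, 26.53 and 22.98 CPM, of which 3 lay below every control. The log2 fold change was -0.24 in transgenic (SE 0.07, edgeR adjusted p = 0.0153) and -0.12 in knockout-labelled mice (SE 0.07, edgeR adjusted p = 0.239). The difference between the 2 groups was -0.12, with a 95% interval from -0.29 to 0.05 (edgeR adjusted p = 0.736). The transgenic call was lost without transgenic replicate 1 (edgeR adjusted p = 0.0606), in males alone (edgeR adjusted p = 0.0663) and without control replicate 2 and transgenic replicates 3 and 5 (edgeR adjusted p = 0.0524). With GC content and length corrected for, the knockout-labelled value was -0.183 and was called (edgeR adjusted p = 0.0479).

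**Figure D3:**
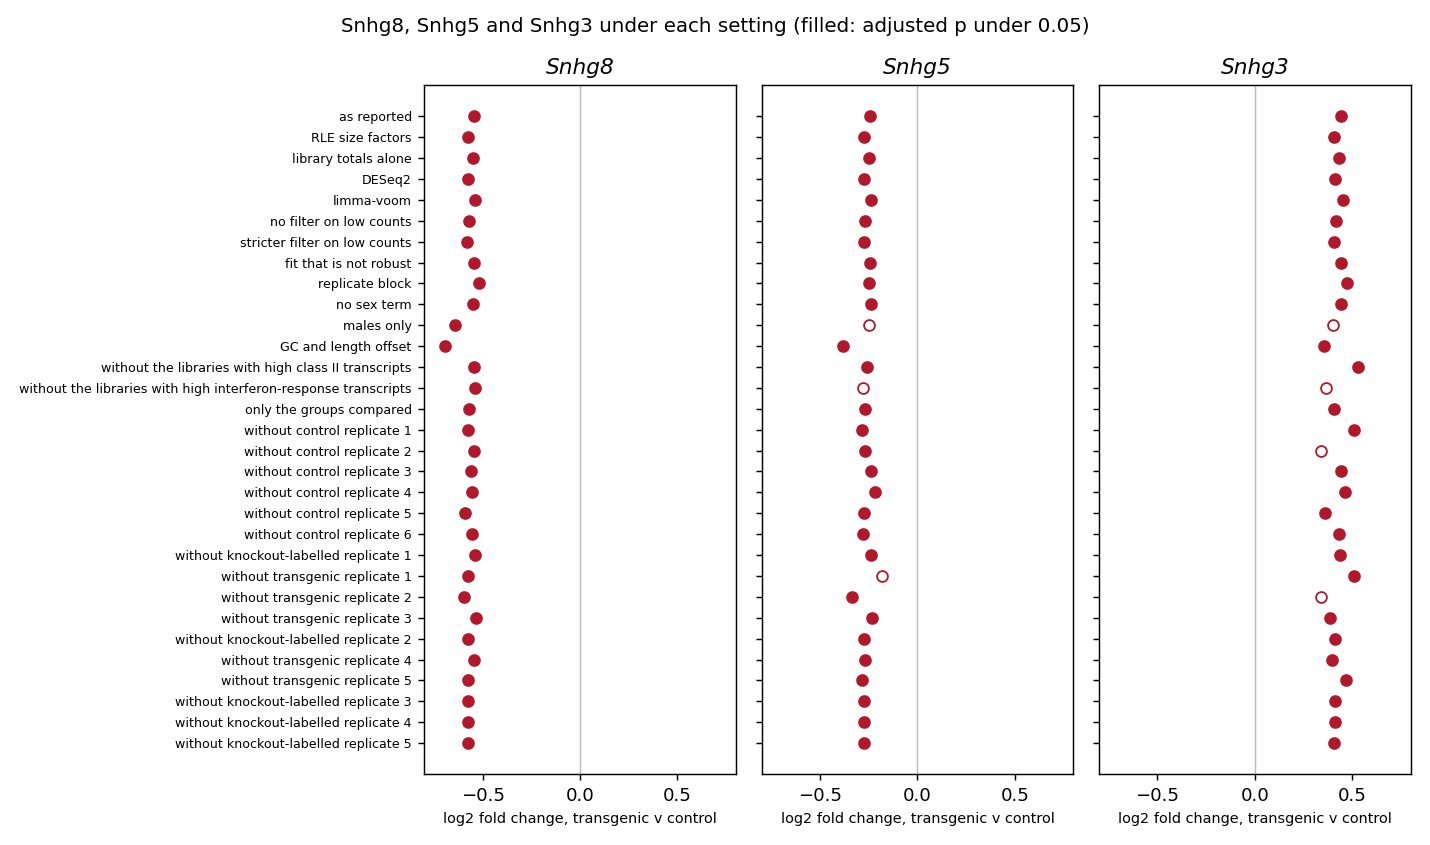
Log2 fold change between transgenic and control mice (x axis, 0 marked by a grey line) of Snhg8, Snhg5 and Snhg3 as reported (top) and under each of the other settings tried (1 line each), filled where the adjusted p is under 0.05. Snhg8 stays between -0.695 and -0.522 and is filled throughout, whereas Snhg5 has 3 open points and Snhg3 has 4.

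Gas5 (chromosome 1, 161034422 to 161038539, plus strand, ENSMUSG00000053332) was not called in either group. It was 143.5 CPM in the lowest, 148.9 in the median and 165.7 in the highest control. The knockout-labelled mice had 139.6, 129.9, 134.2, 148.2 and 122.7 CPM, and 4 of the 5 lay below every control. The transgenic mice had 139.4, 158.1, 148.1, 136.1 and 130.8 CPM, with 3 of the 5 below every control. The log2 fold change was -0.13 in knockout-labelled (SE 0.06, unadjusted p = 0.0354, edgeR adjusted p = 0.101) and -0.07 in transgenic mice (SE 0.05, edgeR adjusted p = 0.346). The knockout-labelled difference passed the threshold with DESeq2 (-0.149, adjusted p = 0.0418) and without transgenic replicate 2, transgenic replicate 5 or knockout-labelled replicate 4, so its call turns on the setting. The first 428 bases of the gene lie opposite Zbtb37, a zinc finger gene on the other strand, whose log2 fold change was -0.18 in knockout-labelled (edgeR adjusted p = 0.0693) and -0.22 in transgenic mice (edgeR adjusted p = 0.0177). The sources used here do not give whether the counting used strand.

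Snhg6, Snhg12 and Zfas1 were not called in any comparison of the groups. Snhg6, the host of the C/D RNA Snord87 (chromosome 1, 9941959 to 9944118, minus strand, ENSMUSG00000098234), averaged 8.557 ± 0.798 CPM in controls, 9.055 ± 0.51 in the knockout-labelled group and 9.147 ± 1.059 in transgenic mice. Its log2 fold change was 0.14, with a 95% interval from -0.02 to 0.31, in the knockout-labelled group and 0.11, from -0.05 to 0.28, in transgenic mice. It overlaps 127 bases of Mcmdc2 on the other strand, a gene of about 1 CPM here.

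Snhg12 (chromosome 4, 132308623 to 132311024, plus strand, ENSMUSG00000086290) hosts the H/ACA RNAs Snora16a, Snora44 and Snora61 and the C/D RNA Snord99. It averaged 12.06 ± 0.96 CPM in controls, 12.11 ± 1.155 in the knockout-labelled group and 11.5 ± 0.909 in transgenic mice. Its log2 fold change was 0.02, with a 95% interval from -0.16 to 0.21, in the knockout-labelled group and -0.06, from -0.24 to 0.12, in transgenic mice. With GC content and length corrected for in each library, the transgenic value was -0.221 (edgeR adjusted p = 0.0485).

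Zfas1 (chromosome 2, 167062934 to 167065862, plus strand, ENSMUSG00000074578), named for its head-to-head position with the zinc finger gene Znfx1, hosts Snord12 and 2 further annotated snoRNAs. It averaged 38.39 ± 4.215 CPM in controls, 40.08 ± 2.586 in the knockout-labelled group and 42.06 ± 3.809 in transgenic mice. Its log2 fold change was 0.08, with a 95% interval from -0.09 to 0.25, in the knockout-labelled group and 0.14, from -0.03 to 0.3, in transgenic mice. Znfx1, which overlaps 82 bases on the other strand, was not called in either group (log2 fold changes -0.19 and 0.12).

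Between transgenic and knockout-labelled mice, the 1 comparison within a single identifier series, none of the 7 members was called by edgeR (0 at an unadjusted p under 0.05), by DESeq2 or by limma-voom, against 1.17% of all genes (1.07% higher and 0.0938% lower). The members' log2 fold changes ran from -0.12 to 0.27. Between males and females none was called by edgeR (1 at an unadjusted p under 0.05), DESeq2 or limma-voom, against 0.141% of all genes (0.0603% higher and 0.0804% lower). The member with the smallest p was Snhg6, at -0.19 in males against females (SE 0.07, edgeR adjusted p = 0.327). The transgenic difference itself did not pass the threshold for a difference between the sexes in any member (edgeR adjusted p from 0.633 to 0.996, 0 at an unadjusted p under 0.05, and 0 by DESeq2 or limma-voom), against 0.0278% of all genes.

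Of all genes, 16.4% were called higher and 10.0% lower in knockout-labelled mice, and 23.0% and 15.6% in transgenic mice. These shares stand beside the counts of the lists below. Protein-coding genes that also carry snoRNAs in their introns mostly rose. In knockout-labelled mice 18 of 26 were higher and 1 lower, with a median log2 fold change of 0.23. In transgenic mice 18 were higher and 2 lower, with a median of 0.32. In males alone, 10 rose in knockout-labelled and 11 in transgenic mice, and without the libraries with high interferon-response transcripts (control replicate 2 and transgenic replicates 3 and 5, here the high interferon libraries) 11 rose in knockout-labelled mice. Of the 26, 17 are ribosomal protein genes. Among the 9 that are not, 5 rose and 1 fell in knockout-labelled mice and 5 rose and 2 fell in transgenic mice. Rpsa, a small-subunit ribosomal protein, rose by 0.56 (SE 0.07, edgeR adjusted p = 0.000282) and 0.63 (SE 0.07, edgeR adjusted p = 1.48e-05). Eif4a2, an RNA helicase of translation initiation, fell by 0.37 and 0.39 (edgeR adjusted p = 0.000874 and 0.000185), and was chosen for mention after its values were seen. None of 8 other noncoding hosts tested was called by edgeR in either group, against 26.4% and 38.6% of all genes. At an unadjusted p under 0.05 there were 0 and 1, and DESeq2 called 0 and 1. Of these hosts, Snhg9, Snhg11 and Dancr averaged at most 0.5686 CPM in any group, so the count is not read as an absence of change. Leaving out 1 library gave 0 or 1 called. Their median log2 fold change was -0.07 and -0.06. The most abundant of those named by the rule, Snhg14, averaged 36.79 CPM in controls, 32.71 in the knockout-labelled group and 32.75 in transgenic mice (edgeR adjusted p = 0.148 and 0.0619).

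Most genes for proteins that bind and mature snoRNAs were higher at the RNA level. Of the 8 genes for core proteins of snoRNA particles, 7 rose in the knockout-labelled group and 6 in transgenic mice, and none fell. Over all genes 16.4% and 23.0% rose. Nhp2, an H/ACA core protein, had log2 fold changes of 0.68 (SE 0.12, edgeR adjusted p = 0.00115) and 0.74 (SE 0.12, edgeR adjusted p = 0.000194). Dkc1, the pseudouridine synthase dyskerin, had 0.45 and 0.41 (edgeR adjusted p = 0.00173 and 0.00111). Of 9 assembly factors 6 rose in each group and none fell. The nucleolar chaperone Nolc1 had log2 fold changes of 0.58 and 0.54 (edgeR adjusted p = 0.000771 and 0.000349). In males alone (3 controls) these counts were lower: 3 core protein genes rose in knockout-labelled and 0 in transgenic mice, where 2 assembly factors rose. Without the high class II or the high interferon libraries, 4 core protein genes rose in knockout-labelled mice.

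Transcripts of the TOP class were mostly higher, against 16.4% of all genes higher in knockout-labelled and 23.0% in transgenic mice. Ribosomal protein mRNAs rose in 68 of 81 genes in knockout-labelled mice (median log2 fold change 0.29) and in 70 of 81 in transgenic mice (median 0.36), and none fell in either. In males alone 38 and 42 rose, and with the GC and length correction 43 rose in knockout-labelled mice. Many of these genes have near-identical processed copies, which makes single values uncertain. Of 16 TOP translation factors 11 and 13 rose and none fell, with Eef1a1, which delivers aminoacyl-tRNA to the ribosome, at 0.34 and 0.39 (edgeR adjusted p = 0.0016 and 0.000209). In males alone 7 and 5 of these factors rose, and in knockout-labelled mice 7 rose with the GC and length correction and 7 without the high interferon libraries. Among 15 regulators of TOP translation, 1 rose and 2 fell in knockout-labelled mice, and 1 rose and 1 fell in transgenic mice. Of all genes, 26.4% and 38.6% were called, and these counts are not read as a result about the list. In transgenic mice 3 or 4 regulators fell without control replicate 1, 2 or 6, transgenic replicate 2, 4 or 5, or knockout-labelled replicate 2, 3, 4 or 5. Larp1, which binds the cap and TOP tract, rose by 0.27 and 0.29 (edgeR adjusted p = 0.00843 and 0.0028), and Tia1, an RNA-binding protein that can hold back TOP mRNAs, fell by 0.26 and 0.36 (edgeR adjusted p = 0.00136 and 5.06e-05). No regulator rose in knockout-labelled mice in males alone, or without the high class II or the high interferon libraries. None rose in transgenic mice in males alone. The Larp1 call was lost in these settings.

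Genes of nonsense-mediated decay were called in both directions. The shares of factors, and of nucleases, that were called lay near those of all genes (26.4% in knockout-labelled and 38.6% in transgenic mice) and are not read as a result about these lists. Of 19 factors, 3 rose and 3 fell in knockout-labelled mice and 3 rose and 4 fell in transgenic mice. In males alone 1 rose and 2 fell in knockout-labelled mice and 2 fell in transgenic mice, and with the GC and length correction 7 and 8 fell and 3 rose in each. Without the high class II libraries 1 rose and 2 fell in knockout-labelled mice. Smg1, the kinase that phosphorylates the helicase Upf1, fell by 0.43 and 0.44 (edgeR adjusted p = 0.000183 and 1.34e-05), while Eif4a3, an RNA helicase of the exon junction complex, rose by 0.27 in both (edgeR adjusted p = 0.0012 and 0.000345). Of 8 tested coding transcripts known as targets of the pathway, 2 rose and 2 fell in knockout-labelled mice and 2 rose and 3 fell in transgenic mice. In males alone none of the 8 rose and 2 and 3 fell, without the high class II libraries 1 fell in knockout-labelled mice, and without the high interferon libraries 1 rose and 1 fell in transgenic mice. Gadd45a, a stress-induced target, fell by 0.54 and 0.62 (edgeR adjusted p = 0.000443 and 3.42e-05). Of 13 nucleases and decapping factors, 3 rose and 1 fell in knockout-labelled mice and 5 rose in transgenic mice (3 without transgenic replicate 1). These counts depended on the settings: in knockout-labelled mice 0 rose in males alone, 2 with the GC and length correction, 0 without the high class II and 1 without the high interferon libraries. In transgenic mice 1 rose and 1 fell in males alone, 1 rose with that correction and 3 rose without the high interferon libraries. Xrn2, a nuclear 5′ exonuclease, rose by 0.16 and 0.26 (edgeR adjusted p = 0.00883 and 0.000175).

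Proliferation genes rose in 23 of 25 members in each group, with medians of 0.63 and 0.65, against 16.4% and 23.0% of all genes higher. The count was 13 in knockout-labelled mice without the high class II libraries and 11 in transgenic mice in males alone. The mitotic kinase Plk1 had log2 fold changes of 0.81 and 0.88 (edgeR adjusted p = 0.000394 and 3.7e-05). Of 5 nuclear noncoding RNAs tested, Malat1 alone was called in each group, against 26.4% and 38.6% of all genes. This count is not read as a result about the list. In males alone 2 were lower in each group, and with the GC and length correction 1 was higher and 1 lower in each. The log2 fold changes of Malat1 were -0.6 and -0.63 (edgeR adjusted p = 0.00054 and 9.7e-05). Malat1 averaged 4236 CPM in controls, 2896 in the knockout-labelled group and 2773 in transgenic mice. Malat1 is a long nuclear RNA outside the snoRNA hosts.

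**Figure D4:**
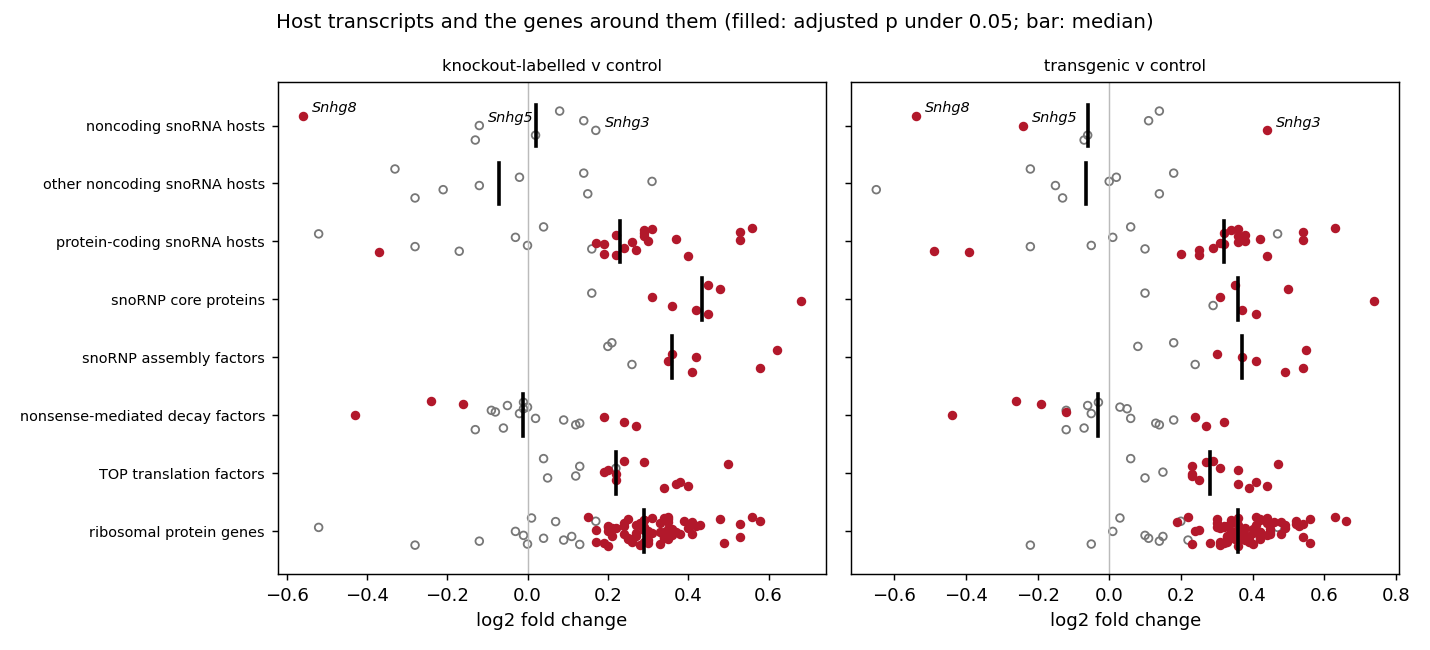
Log2 fold change of every tested gene of 8 lists against control (x axis; left, knockout-labelled; right, transgenic), 1 point per gene, filled where the adjusted p is under 0.05, with the median of each list as a black bar. The medians of the 7 noncoding hosts, 0.02 and -0.06, sit near 0, and those of the 81 ribosomal protein genes are 0.29 and 0.36.

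Since ribosomal protein mRNAs rose, each member was also expressed relative to them, as log2 CPM of the member minus the mean log2 CPM of the 81 ribosomal protein genes in the same library (0.5 added to each CPM). A gene that does not change is lower on this measure. It was compared between groups by an exact two-sided permutation test over mice, with adjustment over the same 14933 genes. Against control, 4 of 7 members were lower in knockout-labelled mice, where 25.9% of all genes were, and 5 of 7 in transgenic mice, where 49.6% of all genes were. No member was higher in either, against 1.62% and 3.19% of all genes.

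Snhg8 had the largest relative difference of the 7 members in both groups. It was -2.71 ± 0.13 in controls, -3.53 ± 0.23 in the knockout-labelled group and -3.59 ± 0.07 in transgenic mice, a difference of -0.82 and -0.88 with no overlap (exact permutation p = 0.00216, the smallest that 6 against 5 mice can give; adjusted p = 0.0284 and 0.0115). Gas5 was -0.39 ± 0.09 in controls, -0.78 ± 0.06 in the knockout-labelled group and -0.81 ± 0.12 in transgenic mice, again without overlap (exact permutation adjusted p = 0.0284 and 0.0115). Snhg12 differed by -0.23 and -0.41 (exact permutation adjusted p = 0.0284 and 0.0115). Zfas1 differed by -0.17 and -0.21 (exact permutation adjusted p = 0.0339 and 0.0256). Values also did not overlap for Snhg12 in either group, for Zfas1 in knockout-labelled mice and for Snhg5 in transgenic mice. The share of all genes without overlap on this measure is not given here, so non-overlap is not read as particular to these members.

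Snhg5 differed by -0.58 in transgenic mice (exact permutation adjusted p = 0.0115) and by -0.36 in knockout-labelled mice (exact permutation adjusted p = 0.0557). Snhg6 differed by -0.16 and -0.25 and was not called (exact permutation adjusted p = 0.247 and 0.0615). Snhg3 stayed nearest to the ribosomal protein genes, at -0.06 and 0.08 (exact permutation adjusted p = 0.676 and 0.623). Between transgenic and knockout-labelled mice none of the 7 was called on this measure, nor was any of the 14933 genes (0.00%), and 1 member, Snhg12, had an unadjusted p under 0.05. The smallest p that 5 against 5 mice can give is 0.00794.

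The knockout-labelled count of 4 fell to 0 with the 26 protein-coding hosts as the reference in place of the ribosomal protein genes. Without control replicate 2, 3, 4 or 5, or without knockout-labelled replicate 4, the count was 0 as well, and why was not tested. The knockout-labelled differences with 1 library left out ran from -0.428 to -0.377 for Gas5 and from -0.907 to -0.757 for Snhg8. They ran from -0.25 to -0.207 for Snhg12 and from -0.193 to -0.149 for Zfas1. The count was also 0 without the high class II and without the high interferon libraries. The transgenic count of 5 was 0 without the high interferon libraries (exact permutation adjusted p = 0.0549 for each). Leaving out libraries of the groups compared leaves fewer permutations and a larger smallest p. A count of 0 in such a run is therefore not read as a loss of the difference. Snhg8 itself kept a relative difference between -0.907 and -0.591 in knockout-labelled mice over all settings.

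**Figure D5:**
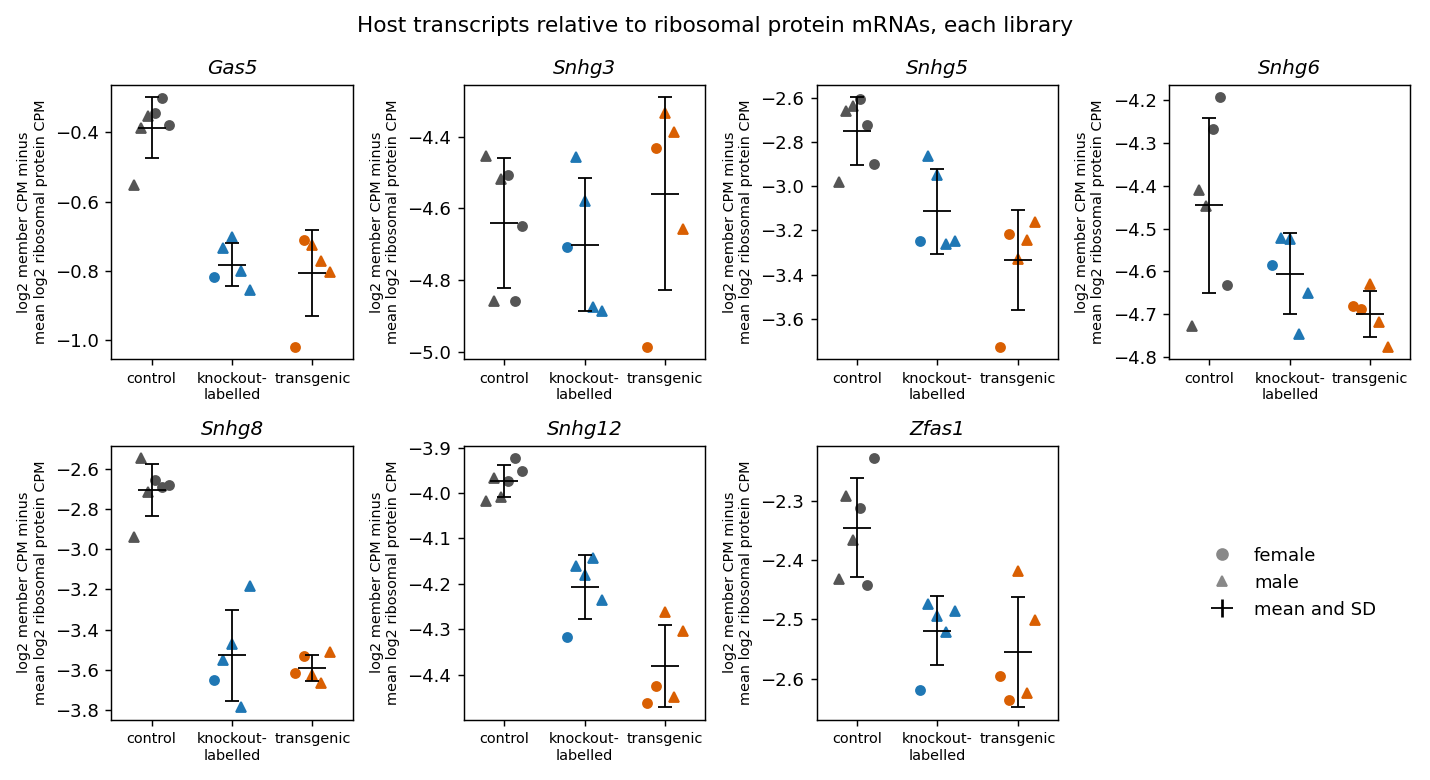
Level of each member relative to the ribosomal protein genes (log2 member CPM minus mean log2 CPM of the 81 genes), 1 point per mouse, circles for females and triangles for males, with the mean and SD of each group in black; the axes do not start at 0. Control values of Gas5, Snhg8 and Snhg12 lie above all other libraries, and those of Snhg3 overlap with both groups. The share of all genes without overlap on this measure is not given.

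The members did not vary as 1 unit across mice. Over the 16 libraries, Pearson correlations of log2 CPM between the 21 pairs of members ran from -0.6 to 0.66, with a median of 0.14. On residuals from group and sex they ran from -0.39 to 0.87, with a median of 0.08. The points share library depth and the scaling of their library, and the values describe these mice only. The genes whose log2 CPM followed the mean of the standardised members most closely were Gm37913 (r = 0.769), Pon2 (0.754), Serpinb6b (0.73), Gm15624 (0.725), Fam43a (0.714) and Gm37645 (0.71). On residuals from group and sex they were Gm6472 (r = 0.888), Gm37123 (0.858), Rps15a (0.822), Rps23 (0.817), Eif3m (0.804) and Il1rap (0.804). The 2 sets share no gene.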

How the data were processed

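The 8 members and the gene lists were chosen with earlier results of these data known. Reads from stranded KAPA libraries were aligned by the authors to GRCm38 (mm10), with Bowtie 1.0.0 and SAMtools 0.1.18 among the tools and edgeR 3.24.3 also listed, per the submitters' processing notes. The counting program, its annotation and its strand setting are not given in the sources used here. Each deposited file gives expected counts and TPM per gene. Of the deposited expected counts above 0, 58.7% were whole within 1e-06. Symbols came from a GENCODE annotation of GRCm38 for 46005 identifiers, and the other 512 held 0.171% of counts.

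Rounded counts were tested by edgeR 4.0.16 (R 4.3.3; robust quasi-likelihood, TMM scaling, filter by group, group and sex as terms, 16 libraries, 12 residual degrees of freedom), with Benjamini-Hochberg adjustment over 14933 genes and a threshold of 0.05. Standard errors are the log2 fold change over the square root of F. The interaction of group and sex was fitted on control and transgenic mice (14385 genes). CPM use TMM-scaled totals. The deposited TPM served for levels between genes and as an alternative. The common biological coefficient of variation was 0.128. No pair of libraries in a group agreed within counting noise (chi-square per degree of freedom 4.55 to 79.7). Mice have separate identifiers.

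The exact permutation test relative to ribosomal protein genes was planned with adjustment over the members and 3 comparisons, and was run that way first. After those values were seen, adjustment over all genes replaced it, because a list chosen with results known supports no adjustment of its own. This changed how many members were called. Genes were named by rule (all members, the 3 smallest p of each list per comparison, overlapping genes, the 6 most correlated genes), and a selection is printed. Alternatives were DESeq2 1.42.0, limma-voom 3.58.1, other scalings and filters, sex and block terms, and leaving out libraries. The GC and length correction and the removal of several libraries together were added after seeing the data. The tests were tried on simulated data.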

Additional observations from a re-analysis of the deposited data

Results flagged for a closer look

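Each member was checked in each group for a mouse that stood apart by Dixon's test (21 sets of 5 or 6 values), which chance alone flags in about 1 of 20 sets. Snhg8 in knockout-labelled replicate 5 was 24.03 CPM, beside 18.01 to 19.25 in the other 4 mice of that group; this mouse was the nearest to the controls, and without it the log2 fold change from control was -0.669. Gas5 in control replicate 6 was 165.7 CPM, beside 143.5 to 150.5 in the other 5 controls. Knockout-labelled replicate 4 stood apart for 2 members, Snhg12 at 14.15 CPM (others 11.32 to 11.88) and Zfas1 at 44.6 CPM (others 38.36 to 39.71).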

How the results depend on the processing

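Of 630 log2 fold changes of members over all settings, 592 kept their direction and side of the threshold. Snhg8 stayed called in transgenic mice throughout, and in knockout-labelled mice in all settings except without the high class II libraries (control replicate 1 and knockout-labelled replicates 1 to 3; edgeR adjusted p = 0.0501). The number of members called in knockout-labelled mice (1 as reported) was 2 with DESeq2, 2 with the GC and length correction and 0 without the high class II libraries, and ran from 1 to 2 with 1 library left out. The number in transgenic mice (3 as reported) was 1 in males only and 1 without the high interferon libraries (control replicate 2 and transgenic replicates 3 and 5), and ran from 2 to 3. Relative to the ribosomal protein genes, the knockout-labelled count (4 as reported) was 0 with the protein-coding hosts as reference, 0 without the high class II and 0 without the high interferon libraries, and ran from 0 to 4; the transgenic count (5 as reported) was 0 without the high interferon libraries (adjusted p = 0.0549 for each of the 5) and ran from 4 to 6. Leaving out libraries of the groups compared leaves fewer permutations and a larger smallest p, also in runs where the calls held. The cause of these changes was not tested.

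Values that changed sign lay near 0. The Snhg8 log2 fold change between transgenic and knockout-labelled mice (0.02 as reported) was -0.003 with no filter, -0.088 in males only, -0.069 with the GC and length correction, -0.115 without the high class II and -0.003 without the high interferon libraries, and ran from -0.03 to 0.093 with 1 library left out. In the same comparison Zfas1 was -0.037 and -0.002 without these libraries, and Snhg6 was 0.015 with no sex term and ran from -0.066 to 0.007. Snhg12 in knockout-labelled mice was -0.068 with the GC and length correction and ran from -0.066 to 0.054. Relative to ribosomal protein genes, Gas5 between transgenic and knockout-labelled mice was 0.007 with TPM, 0.023 with protein-coding hosts as reference and 0.022 without the high class II libraries, and ran from -0.047 to 0.029; Snhg8 ran from -0.127 to 0.023; Zfas1 was 0.011 and Snhg3 in knockout-labelled mice 0.011 with protein-coding hosts as reference; Snhg3 in transgenic mice was -0.005 without the high interferon libraries.

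Replicate numbers did not pair the mice: same-numbered mice had correlated deviations from -0.088 to 0.273 over 15 pairs, 1 above 0.1, and 4 correlated best with their own number. With the replicate block 4 members were called in transgenic mice, Zfas1 joining at 0.189 (adjusted p = 0.0455). Over all genes, 2449 higher and 1493 lower calls in knockout-labelled mice became 1909 and 1918 with the GC and length correction and 1046 and 392 without the high class II libraries; 3438 and 2327 in transgenic mice became 2436 and 3031 with that correction and 1480 and 1680 in males only. DESeq2 called 277 and 65 genes between transgenic and knockout-labelled mice (edgeR 160 and 14), 47 and 63 between the sexes (9 and 12) and 81 and 64 for the interaction (4 and 0). The lowest member level was 5.877 CPM, and what depth limits was not tested.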
